A study of Vitis vinifera with 6 samples.

Results

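The genes described here are a run of 14 gene identifiers on grapevine chromosome 16, from VIT_16s0013g00950 to VIT_16s0013g01120, and the single gene ERF9 (VIT_12s0028g03270) on chromosome 12, which makes 15 of the 28059 gene models in the table. Members of the run were taken by the order of their identifiers, so that every identifier listed between the first and the last was kept. Of the 14, 4 are annotated as ERF105, an ethylene-responsive transcription factor. They are the first identifier of the run (VIT_16s0013g00950), the last one (VIT_16s0013g01120), and VIT_16s0013g00990 and VIT_16s0013g01050 between them. The other 10 have no name in the sources used here and are given by their identifiers, so that whether they also encode ERF105 was not tested.

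mRNA-Seq was carried out on 6 libraries, 1 for each of 2 clones at each of 3 stages. The mutant is a spontaneous seedless somatic variant of the wine grape Sangiovese, and the wild-type is the seeded Sangiovese from which it arose. Both clones were sampled as flowers before fertilization (stage E-L 15 of the modified E-L system), as young enlarging berries (E-L 27) and as harvest-ripe berries (E-L 38), and each library pooled RNA of 3 extractions from 1 biological replicate. Apart from missing seeds, mutant berries and bunches are smaller at harvest. RNA came from flowers or berries and not from isolated seeds or ovules. A lower value in a library could therefore mean fewer cells of a type or less RNA per cell, which cannot be told apart. There is no replicate within a clone and stage, so the 95% intervals given below are exact conditional binomial intervals on reads and cover counting error only.

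ERF proteins are plant transcription factors with an AP2/ERF DNA-binding domain, and many of them bind the GCC box in promoters of genes that respond to ethylene or to pathogens. In Arabidopsis, ERF105 belongs to the B-3 subfamily, whose genes respond to cold and other stress, and ERF9 takes part in repressing defence genes. Ethylene is known in fruits as a hormone of flower senescence, fruit set and ripening, although the grape berry ripens without the ethylene burst of fruits such as tomato.

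The libraries held between 70331451 and 98800321 uniquely mapped reads. At this depth 3 reads, the most that a count of 0 allows, correspond to between 0.0304 and 0.0427 RPM (read counts scaled to a total of 1000000 in every library). Reads that matched several positions were not counted, so that reads shared by near-identical tandem copies are missing from every value of the run, and the split between copies is uncertain. RPM was not divided by gene length, so levels are compared between libraries and not between genes. A set of 8 seed and ovule genes, which were picked on these libraries, was used to check the berries. Of the 8, the mutant had less than the wild-type for 8 in young berries, for 8 in ripe berries and for 1 in flowers. Their summed level was 29.1, 16.3 and 28.3 RPM in the mutant at the 3 stages, against 23.2, 87.9 and 869 RPM in the wild-type. Mutant berries of either stage had no read for 3 of the 8 (7S globulin, ABI3 and PM34). In wild-type young berries these 3 had at most 0.0997 RPM. Most of the wild-type sum at E-L 27 came from SEEDSTICK (67.4 RPM) and TRANSPARENT TESTA16 (14.2 RPM).

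Summed over the run, the mutant had 16.8 RPM at E-L 15, 171 RPM at E-L 27 and 65.0 RPM at E-L 38, against 23.7, 62.8 and 102 RPM in the wild-type. The run as a whole was therefore highest in mutant young berries and lowest in mutant flowers. Members did not share 1 pattern. By their levels in the wild-type, which were seen before the split was made, 8 were highest at E-L 27, 3 were highest at E-L 38, and 3 had a mean under 0.5 RPM over the 6 libraries. The 8 members highest at E-L 27 lie at the start of the run, from VIT_16s0013g00950 to VIT_16s0013g01070, and the 3 highest at E-L 38 (VIT_16s0013g01080, VIT_16s0013g01110 and VIT_16s0013g01120) at its end.

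**Figure D1:**
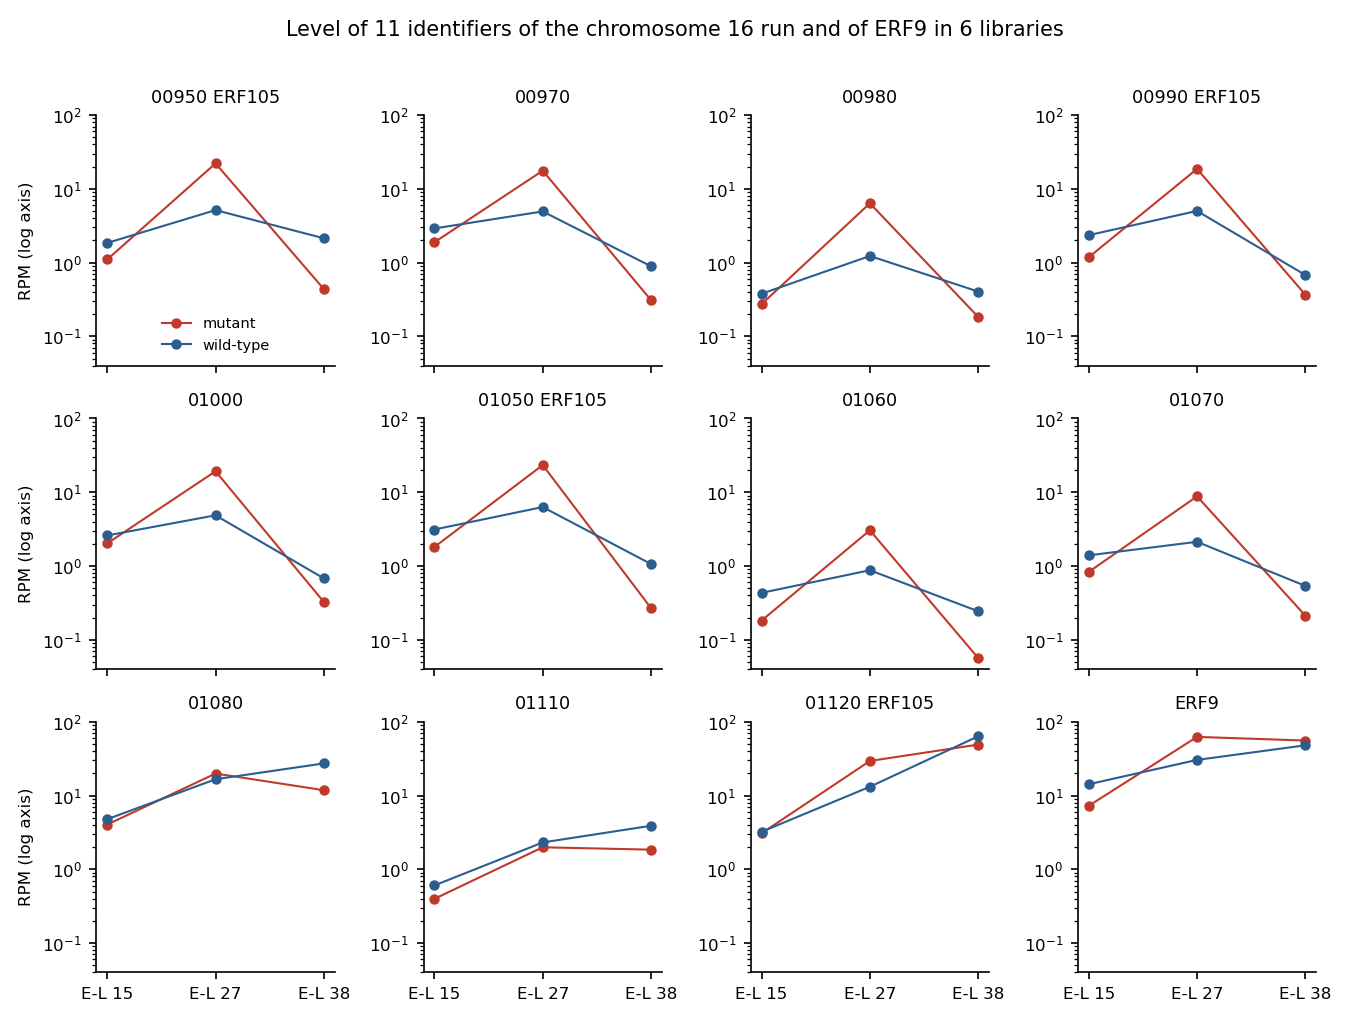
RPM on a log axis of 11 members of the run (panel titles give the end of the identifier, with ERF105 where it is so annotated) and of ERF9, by stage, with 1 point per library, mutant in red and wild-type in blue. In the 8 panels from VIT_16s0013g00950 to VIT_16s0013g01070 the lines of the clones cross on both sides of E-L 27, and mutant young berries hold the highest level, between 3.04 and 23.3 RPM.

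VIT_16s0013g00950, named ERF105, had 1.10, 22.1 and 0.437 RPM in mutant flowers, young berries and ripe berries, against 1.85, 5.15 and 2.14 RPM in the wild-type. These values rest on 97, 1556 and 31 reads in the mutant and on 171, 465 and 211 reads in the wild-type. Mutant young berries stood above every other library, and mutant ripe berries stood below every other library. The mutant level was 1.68-fold lower at E-L 15 (interval 1.30 to 2.17), 4.30-fold higher at E-L 27 (3.87 to 4.78) and 4.88-fold lower at E-L 38 (3.34 to 7.37). Within the wild-type, E-L 38 exceeded E-L 15 by 1.16-fold by RPM, with an interval that includes no difference (0.941 to 1.42), and by 1.43-fold with TMM factors (1.16 to 1.76).

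VIT_16s0013g00990, also named ERF105, had 1.18, 18.6 and 0.367 RPM in the mutant and 2.35, 5.02 and 0.678 RPM in the wild-type at the same stages. Its order of libraries began, as for VIT_16s0013g00950, with E-L 27 of the mutant and then E-L 27 of the wild-type. The mutant was 1.99-fold lower at E-L 15 (1.57 to 2.54), 3.71-fold higher at E-L 27 (3.33 to 4.14) and 1.85-fold lower at E-L 38 (1.16 to 3.03).

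VIT_16s0013g01050, the third ERF105 of the group highest at E-L 27, had 1.81, 23.3 and 0.268 RPM in the mutant and 3.12, 6.29 and 1.06 RPM in the wild-type. Of the 11 members whose mean reached 0.5 RPM it covered the widest range between libraries, with mutant E-L 27 exceeding mutant E-L 38 by 87.1-fold (55.6 to 145). Between clones the mutant level was 1.73-fold lower at E-L 15 (1.42 to 2.11), 3.71-fold higher at E-L 27 (3.37 to 4.09) and 3.96-fold lower at E-L 38 (2.42 to 6.85).

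The 5 unnamed members of the same group had the same order of clones at every stage. VIT_16s0013g00970 had 1.89, 17.6 and 0.310 RPM in the mutant against 2.91, 4.94 and 0.891 RPM in the wild-type. VIT_16s0013g01000 had 2.02, 19.2 and 0.324 RPM in the mutant against 2.59, 4.86 and 0.678 RPM in the wild-type. In both, mutant young berries stood above and mutant ripe berries below the other 5 libraries. VIT_16s0013g00980 had 0.273, 6.37 and 0.183 RPM in the mutant against 0.378, 1.23 and 0.405 RPM in the wild-type. VIT_16s0013g01060 had 0.182, 3.04 and 0.0564 RPM in the mutant against 0.432, 0.875 and 0.243 RPM in the wild-type. VIT_16s0013g01070 had 0.830, 8.79 and 0.212 RPM in the mutant against 1.39, 2.13 and 0.536 RPM in the wild-type. These last 3 were the least read of the group, and VIT_16s0013g00980 had the one interval at E-L 15 that includes no difference (1.39-fold lower in the mutant, 0.801 to 2.44).

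Across the 8 members, the E-L 27 library of the mutant alone held between 61.7% and 72.1% of the RPM summed over the 6 libraries, while E-L 27 of the wild-type held between 13.9% and 18.1%. At E-L 27 the mutant exceeded the wild-type by 3.48-fold (VIT_16s0013g01060) to 5.18-fold (VIT_16s0013g00980), with a median of 3.83-fold. The run was selected on high values in this comparison and on the mutant difference between E-L 27 and E-L 15, so both are given as a description. At E-L 15 all 8 were lower in the mutant, by 1.28 to 2.38-fold, and 7 of the 8 intervals excluded no difference. At E-L 38 all 8 were again lower in the mutant, by 1.85 to 4.88-fold, and all 8 intervals excluded no difference. With 0.5 RPM added to both values, which pulls ratios of low levels toward 1, the ratio of mutant to wild-type there was 0.356 instead of 0.205 for VIT_16s0013g00950, 0.583 instead of 0.348 for VIT_16s0013g00970, 0.491 instead of 0.252 for VIT_16s0013g01050 and 0.749 instead of 0.232 for VIT_16s0013g01060. Clone differences of the 8 thus had 1 direction at E-L 27 and the other at both remaining stages, under RPM and with scaling by TMM factors or DESeq2 size factors.

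VIT_16s0013g01120, the fourth ERF105 and the last identifier of the run, had 3.08, 29.5 and 49.1 RPM in the mutant and 3.23, 13.2 and 63.7 RPM in the wild-type in flowers, young berries and ripe berries. It was therefore highest in ripe berries of both clones, unlike the other ERF105 genes. The flowers of both clones did not differ beyond counting error (1.05-fold lower in the mutant, 0.887 to 1.24), whereas the mutant was 2.24-fold higher at E-L 27 (2.08 to 2.40) and 1.30-fold lower at E-L 38 (1.24 to 1.35).

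VIT_16s0013g01080 had 4.05, 19.9 and 11.8 RPM in the mutant and 4.78, 16.7 and 27.3 RPM in the wild-type. VIT_16s0013g01110 had 0.398, 1.99 and 1.85 RPM in the mutant and 0.605, 2.31 and 3.90 RPM in the wild-type. Their clones lay close together at E-L 27, where the ratio of mutant to wild-type was 1.20 (1.11 to 1.29) for VIT_16s0013g01080 and 0.860 for VIT_16s0013g01110, whose interval included 1. In ripe berries, VIT_16s0013g01080 was 2.31-fold (2.14 to 2.50) and VIT_16s0013g01110 was 2.11-fold (1.73 to 2.59) lower in the mutant.

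VIT_16s0013g01030, VIT_16s0013g01040 and VIT_16s0013g01090 gave little or no signal. VIT_16s0013g01030 had 1, 12 and 1 reads in the mutant and 8, 5 and 0 reads in the wild-type, and VIT_16s0013g01090 had 1, 19 and 0 reads in the mutant and 0, 10 and 6 reads in the wild-type. No read of any library was assigned to VIT_16s0013g01040. Because reads with several positions were excluded, such counts do not show that these copies are silent.

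ERF9 had 7.26, 62.5 and 55.7 RPM in mutant flowers, young berries and ripe berries, against 14.2, 30.5 and 48.0 RPM in the wild-type. Both berry libraries of the mutant stood above both berry libraries of the wild-type, and mutant flowers stood lowest of all 6. The mutant was 1.96-fold lower at E-L 15 (1.78 to 2.16), 2.05-fold higher at E-L 27 (1.96 to 2.15) and 1.16-fold higher at E-L 38 (1.11 to 1.21). ERF9 was also among the genes the study measured by real-time PCR. The primers designed for it are given to show which transcript was targeted, each from 5′ to 3′. Values of the real-time PCR were not used.
ERF9 forward primer: caacgaagtcctccccttcc
ERF9 reverse primer: cagcagcggaattcacaacg

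Comparison between the clones was then set against all genes whose mean over both libraries compared reached 1 RPM, with 0.5 RPM added to each value and a 2-fold limit. At E-L 27, 12 of the 15 members passed the minimum and 10 of them were past 2-fold higher in the mutant, beside 0.378% of all 18787 genes. The members were chosen by this very difference, so nothing is read from the count. VIT_16s0013g01060 met the minimum only through its mutant level. In the order of these 18787 genes from the highest ratio, the 8 members highest at E-L 27 held ranks between 6 (VIT_16s0013g00950) and 27 (VIT_16s0013g01060), VIT_16s0013g01120 rank 49 and ERF9 rank 69. The 2 members below 2-fold held rank 1971 (VIT_16s0013g01080) and rank 14391 (VIT_16s0013g01110). With 0.5 RPM added, the 2-fold limit is a log2 ratio of 1. Nearest to it were ERF9, past it at 1.02, and VIT_16s0013g01080, short of it at 0.25.

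At E-L 15, 9 members passed the minimum, and 0 of them were past 2-fold lower in the mutant, beside 0.59% of all genes. VIT_16s0013g01070 met the minimum at this stage only through its wild-type level. All 9 were below the wild-type, with a median log2 ratio of -0.51, against -0.02 over all genes tested. In order from the lowest of 18825 ratios, ERF9 held rank 129, VIT_16s0013g00990 rank 179 and VIT_16s0013g01050 rank 248. Mutant flowers were the lower side of the difference on which these genes were chosen, so the median and ranks are a description and no independent result. At E-L 38, 5 members passed, and 2 of them (VIT_16s0013g00950 and VIT_16s0013g01080) were past 2-fold lower in the mutant, beside 6.38% of all genes. VIT_16s0013g00950 met the minimum there only through its wild-type level. The median log2 ratio of the 5 was -0.91, against -0.08 over all genes. Of the members highest at E-L 27 in the wild-type, only VIT_16s0013g00950 passed. As it is also among the called members, nothing is read from this count and median.

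**Figure D2:**
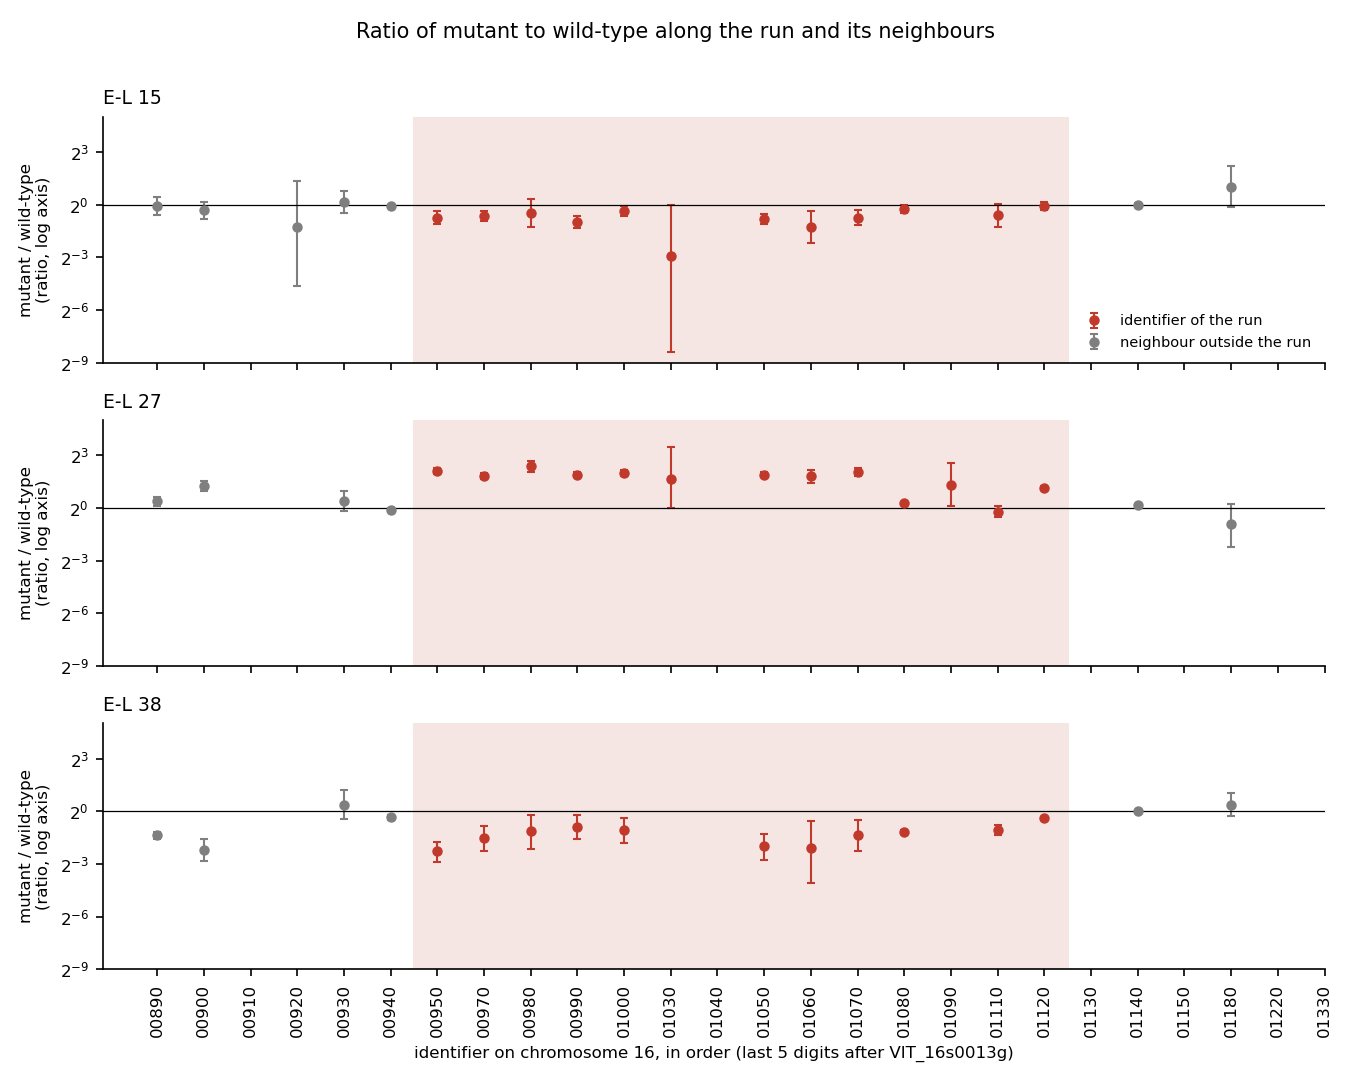
Ratio of mutant to wild-type RPM on a log axis for each identifier in order along chromosome 16, at 3 stages, with bars for 95% counting intervals; members of the run are red on a shaded band and the 6 neighbours on each side are grey, and identifiers with too few reads for a ratio have no point. At E-L 27 the 8 members from VIT_16s0013g00950 to VIT_16s0013g01070 sit between 3.48 and 5.18, while the neighbours VIT_16s0013g00940 and VIT_16s0013g01140 sit near 1. The neighbours VIT_16s0013g00900 and VIT_16s0013g00890 sit at 2.37 and 1.29 there.

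The pattern was next followed outside the run, in the 6 identifiers on each side. VIT_16s0013g00940, which directly precedes the run, had 23.2, 20.6 and 7.60 RPM in the mutant and 24.8, 22.4 and 9.64 RPM in the wild-type. VIT_16s0013g01140, on the other side, had 21.0, 42.9 and 65.9 RPM in the mutant and 20.8, 38.0 and 66.5 RPM in the wild-type. The clones differed by at most 1.27-fold in either neighbour at any stage. VIT_16s0013g00900, further before the run, had 0.693, 3.78 and 0.367 RPM in the mutant and 0.864, 1.59 and 1.69 RPM in the wild-type. Its clone difference resembled that of the run, being 2.37-fold higher in the mutant at E-L 27 (1.93 to 2.93) and 4.61-fold lower at E-L 38 (3.04 to 7.26), whereas at E-L 15 the clones did not differ beyond counting error. VIT_16s0013g00890 had 0.705, 3.63 and 4.73 RPM in the mutant and 0.734, 2.80 and 12.3 RPM in the wild-type. It was 1.29-fold higher in the mutant at E-L 27 (1.08 to 1.55) and 2.60-fold lower at E-L 38 (2.30 to 2.95). The other neighbours had at most 0.739 RPM in any library.

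From flower to young berry, every member whose mean over all libraries reached 0.5 RPM was higher at E-L 27 in both clones. Below that mean, VIT_16s0013g01030 was 1.56-fold lower at E-L 27 in the wild-type, on 5 against 8 reads (0.450 to 6.06). In the mutant, 12 members passed the minimum and 12 were past 2-fold higher, beside 8.29% of all genes, which is the difference on which these genes were chosen. There VIT_16s0013g00980, VIT_16s0013g01060, VIT_16s0013g01070 and VIT_16s0013g01110 met the minimum only through their E-L 27 level. Nothing is therefore read from the mutant count and median. In the wild-type, 10 passed and 5 were past 2-fold higher, beside 9.24% of all genes. These 5 were VIT_16s0013g00950, VIT_16s0013g01080, VIT_16s0013g01110, VIT_16s0013g01120 and ERF9, of which VIT_16s0013g01110 met the minimum only through its E-L 27 level. The median log2 ratio of the members was 2.99 for the mutant (-0.02 over all genes) and 1.01 for the wild-type (0.00 over all genes). The mutant and the wild-type share no library in these 2 comparisons. E-L 27 of the wild-type also served to choose these genes, however, so the wild-type count and median are no independent result.

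The size of this change separated the members. For the 8 highest at E-L 27 it was between 9.34-fold (VIT_16s0013g00970) and 23.4-fold (VIT_16s0013g00980) in the mutant, against 1.53-fold (VIT_16s0013g01070) to 3.25-fold (VIT_16s0013g00980) in the wild-type. The mutant change was thus between 5.07 and 8.26 times the wild-type change. Both mutant libraries of this comparison and E-L 27 of the wild-type served to choose these genes, so these sizes are a description. VIT_16s0013g01120 was 9.57-fold higher in the mutant (8.43 to 10.9) and 4.08-fold higher in the wild-type (3.59 to 4.65), and ERF9 was 8.61-fold higher in the mutant (7.92 to 9.37) and 2.14-fold higher in the wild-type (2.0 to 2.29). VIT_16s0013g01080 (4.92-fold in the mutant, 3.48-fold in the wild-type) and VIT_16s0013g01110 (5.0-fold in the mutant, 3.83-fold in the wild-type) had the most similar changes in both clones.

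**Figure D3:**
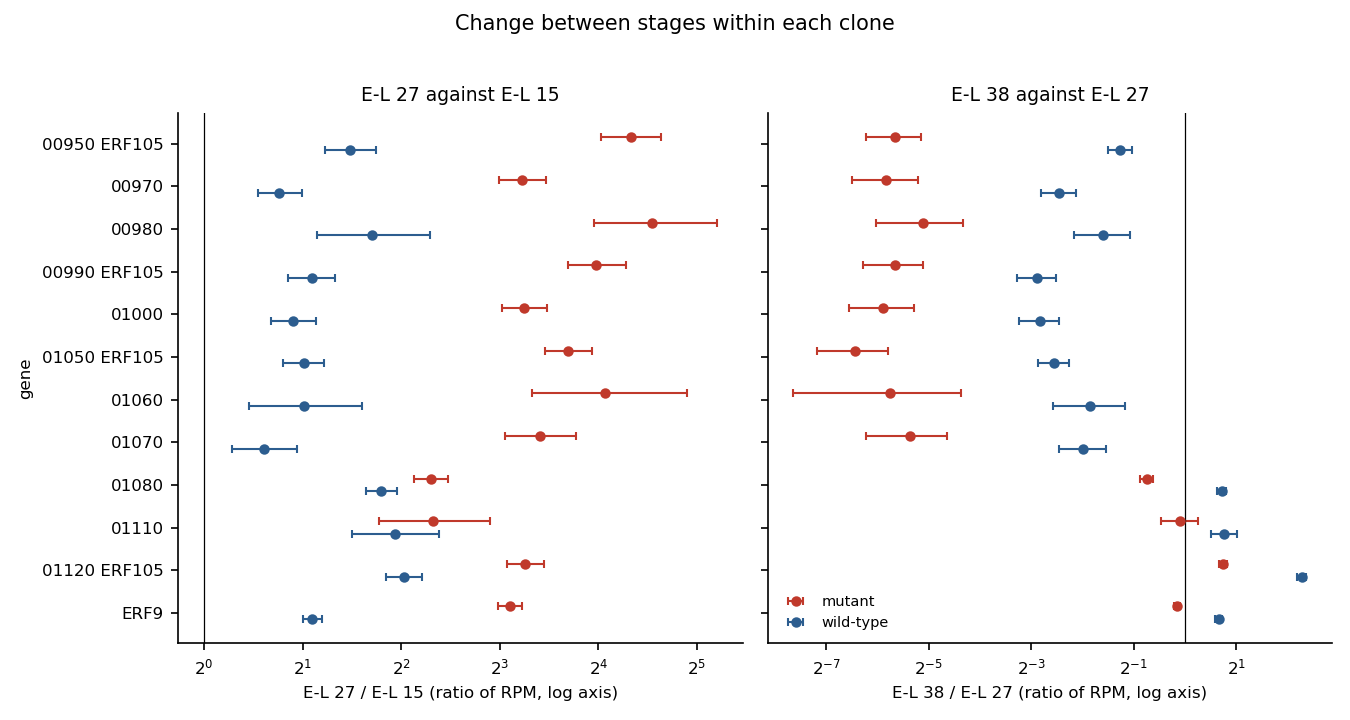
Ratio of RPM between successive stages on a log axis for 11 members of the run and ERF9, with E-L 27 against E-L 15 on the left and E-L 38 against E-L 27 on the right, mutant (red) above wild-type (blue), and bars for 95% counting intervals. On the right, the 8 members from VIT_16s0013g00950 to VIT_16s0013g01070 are lower at E-L 38, by 34.7 to 87.1-fold for the mutant and by 2.41 to 7.40-fold for the wild-type, and VIT_16s0013g01080 lies on opposite sides of 1 in the clones.

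From young to ripe berry, the 8 members were lower in both clones, by 34.7-fold (VIT_16s0013g00980) to 87.1-fold (VIT_16s0013g01050) in the mutant and by 2.41-fold (VIT_16s0013g00950) to 7.40-fold (VIT_16s0013g00990) in the wild-type. In the mutant, 12 members passed the minimum, 8 were past 2-fold lower (34.5% of all genes) and 0 past 2-fold higher (13.6% of all genes). In the wild-type, 10 passed, 6 were past 2-fold lower (31.6% of all genes) and 1, VIT_16s0013g01120, was past 2-fold higher (14.3% of all genes). The median log2 ratio of the members was -3.52 for the mutant and -1.22 for the wild-type, against -0.40 over all genes for the mutant and -0.32 for the wild-type. All 8 called in the mutant, at most 0.437 RPM in its ripe berries, met the minimum only through its young berries, whose high values had served to choose these genes. In the wild-type VIT_16s0013g00970, VIT_16s0013g00990, VIT_16s0013g01000 and VIT_16s0013g01070 also met it only through young berries, so nothing is read from these counts and medians. Scaling by TMM factors instead of RPM moved all log2 ratios of this comparison by 0.39 for the mutant and 0.31 for the wild-type, and DESeq2 size factors moved them by 0.43 for the mutant and 0.34 for the wild-type.

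ERF9 and the 3 members at the end of the run were between 1.58 and 4.83-fold higher in ripe than in young berries of the wild-type. In the mutant, VIT_16s0013g01120 was 1.67-fold higher (1.58 to 1.76) and VIT_16s0013g01080 was 1.68-fold lower (1.54 to 1.84). VIT_16s0013g01110 differed by less than counting error (1.08-fold lower, 0.843 to 1.38). ERF9 was 1.12-fold lower (1.07 to 1.17) by RPM but 1.17-fold higher with TMM factors, so that its direction in the mutant depends on the scaling.

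Ripe berries and flowers were also compared. The 8 members were 1.49 to 6.74-fold lower in ripe berries than in flowers of the mutant, with 7 of 8 intervals excluding no difference, while in the wild-type 6 were lower and 2 were higher. Scaling by TMM factors moved the log2 ratios of this comparison by 0.42 for the mutant and 0.31 for the wild-type. With them the 8 members were 1.11 to 5.04-fold lower in the mutant, with 6 of 8 intervals excluding no difference, and the intervals of VIT_16s0013g01060 then included it in both clones. VIT_16s0013g01120 was 16-fold higher at E-L 38 in the mutant (14.1 to 18.1) and 19.7-fold higher in the wild-type (17.6 to 22.2). For ERF9 the same ratio was 7.68 in the mutant (7.06 to 8.36) and 3.37 in the wild-type (3.17 to 3.59).

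Likeness between profiles was measured as Pearson's r of log2(RPM + 0.5) over the 6 libraries and is given as a description, since all profiles share the same libraries and the groups were formed on their shape. Among the 8 members highest at E-L 27 the 28 pairs had r between 0.912 and 0.998. Between these 8 and the 3 members highest at E-L 38, r was between -0.20 and 0.477. ERF9 resembled the 3 members at the end of the run (r between 0.860 and 0.926) more than the 8 (0.0779 to 0.450).

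Over the 19304 genes whose mean reached 1 RPM, the 5 outside the run whose profile was most like the mean of the run were VIT_10s0042g01260 (r = 0.994), VIT_05s0020g04440 (0.991), VIT_00s0941g00020 (0.983), VIT_01s0010g00720 (0.981) and VIT_02s0025g04030 (0.977). Their amplitude was smaller. VIT_00s0941g00020 had 0.750, 3.80 and 0.705 RPM in the mutant and 1.34, 1.78 and 1.10 RPM in the wild-type, and VIT_10s0042g01260 had 7.66, 10.5 and 7.70 RPM in the mutant and 8.17, 9.16 and 8.47 RPM in the wild-type. With 0.05 RPM added instead, 3 of the 5 were the same genes. The mean of the run was taken over all 14 identifiers, also those with few or no reads. It mixes members of unlike profile, so likeness to it does not show likeness to each member. Closest to ERF9 were VIT_13s0064g01070, VIT_10s0003g04070, VIT_10s0003g02630, VIT_01s0011g01620 and VIT_18s0001g09230, with r of at least 0.984, and all 5 were the same with 0.05 RPM. Of these, VIT_18s0001g09230 had 27.7, 66.9 and 72.0 RPM in the mutant and 32.4, 47.4 and 65.4 RPM in the wild-type.

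VIT_12s0134g00240, an Avr9/Cf-9 rapidly elicited protein gene annotated to stress signalling, had 9.69, 77.1 and 22.7 RPM in the mutant and 17.7, 36.7 and 21.5 RPM in the wild-type. Genes of this kind are known in tomato for an early role in the defence response. As for ERF9, mutant flowers were lowest and mutant young berries highest of the 6 libraries. The gene was picked together with these factors on that same mutant difference, so the likeness is a description. The mutant level was 1.82-fold lower at E-L 15 (1.68 to 1.98) and 2.10-fold higher at E-L 27 (2.01 to 2.19), while in ripe berries it was 1.05-fold higher by RPM (0.987 to 1.12) and 1.14-fold higher with TMM factors (1.07 to 1.22).

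The clone differences at E-L 27 and E-L 38 were measured between berries that differed in the levels of the seed and ovule genes given above, and the part of seed tissue in them was not tested. At E-L 15 the summed level of those genes was 29.1 RPM in the mutant and 23.2 RPM in the wild-type.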

How the data were processed

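For each gene model, the deposited counts give its uniquely mapped reads, which the authors obtained with BWA and SAMtools on the v1 mRNA annotation of the grapevine genome, leaving out reads with several positions (versions not given in the sources used here). To make the RPM values, the authors scaled every library to a total of 1000000 uniquely mapped reads, without gene length. Libraries were grouped by clone and stage from their titles. Ratios of RPM were given 95% Clopper-Pearson intervals (exact, conditional on the sum of both counts), tested on simulated data. No ratio was given where both counts were 3 or fewer, and no p-value of a member is given, since the fits below hold the libraries on which the members were chosen. Genes were called by a 2-fold limit, for genes whose mean reached 1 RPM, after adding 0.5 RPM. Stage and clone terms over all 6 libraries were fitted to the counts with edgeR 4.0.16 (quasi-likelihood test after filterByExpr and TMM, 2 residual degrees of freedom, adjusted p below 0.05). DESeq2 1.42.0 served as alternative in R 4.3.3, and other computations used Python 3.11.15, numpy 2.4.6, scipy 1.17.1, pandas 2.3.3 and matplotlib 3.10.9.

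The members, gene lists and rules were chosen with earlier results of these data known. Named are all members, of the 6 identifiers on each side of the run the 4 that exceeded 1 RPM in a library (this limit was set after their values were seen), the 5 genes most like the run and ERF9, and VIT_12s0134g00240. Alternatives were TMM factors, DESeq2 size factors, 0.5 or 0.05 RPM added, no minimum, a 3-fold limit, DESeq2, no filter on low counts, and leaving out each library. Lists of other ethylene and stress genes were not analysed here, because 0 identifiers matched the annotation used here. Values of the real-time PCR were not used.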

Additional observations from a re-analysis of the deposited data

Results flagged for a closer look

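The values below are those where a comparison of single libraries had one direction in one setting and the opposite direction in another, with counting intervals that exclude no difference on both sides. The difference between the settings was not tested, since there is 1 library per clone and stage. Mutant E-L 15, mutant E-L 27 and wild-type E-L 27 also served to choose these genes. Each reversal that involves E-L 27 is therefore a description and no independent result.

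The ratio of mutant to wild-type was above 1 in young berries and below 1 in both flowers and ripe berries for 8 members of the run. For VIT_16s0013g00950 it was 4.30 at E-L 27, against 0.597 at E-L 15 and 0.205 at E-L 38. For VIT_16s0013g00970 it was 3.57, against 0.649 and 0.348 at those stages. For VIT_16s0013g00990 it was 3.71, against 0.502 and 0.541, and for VIT_16s0013g01000 it was 3.96, against 0.780 and 0.478. VIT_16s0013g01050 had 3.71, against 0.579 and 0.252. VIT_16s0013g01060 had 3.48, against 0.421 and 0.232. VIT_16s0013g01070 had 4.13, against 0.595 and 0.394, and VIT_16s0013g01080 had 1.20, against 0.845 and 0.433.

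In 4 further members the ratio of mutant to wild-type at E-L 27 was opposite to that of 1 other stage. For VIT_16s0013g00980 it was 5.18 at E-L 27 but 0.453 in ripe berries. For VIT_16s0013g01120 it was 2.24 at E-L 27 but 0.771 in ripe berries. VIT_16s0013g01030 had 3.08 at E-L 27 and 0.132 at E-L 15, where the mutant had 1 read and the interval of its 7.60-fold lower level was 1.02 to 337. ERF9 had 2.05 at E-L 27 and 0.510 at E-L 15.

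The ratio of E-L 38 to E-L 27 was opposite between clones for VIT_16s0013g01080, with 0.594 for the mutant and 1.64 for the wild-type, and for ERF9, with 0.892 for the mutant and 1.58 for the wild-type. The ERF9 value of the mutant reverses with TMM factors.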

How the results depend on the processing

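Ratios of the members mostly kept their direction and size when rescaled: 96 with TMM factors and 94 with DESeq2 size factors moved by less than their counting interval, and 19 and 21 moved by more. The ratio of E-L 38 to E-L 27 of ERF9 in the mutant reversed, at 1.17 with TMM factors and 1.20 with DESeq2 size factors. With 0.5 RPM added, 33 clone ratios stayed within their interval and 6 moved: at E-L 38 those of VIT_16s0013g00950, VIT_16s0013g00970, VIT_16s0013g01050 and VIT_16s0013g01060, given above, and at E-L 27 those of VIT_16s0013g00980 (3.97) and VIT_16s0013g01060 (2.58). A 3-fold limit left 0 members lower in the mutant at E-L 38 and 2 higher in young berries than in flowers of the wild-type. Members past 2-fold higher at E-L 38 than at E-L 27 numbered 1 in the mutant with TMM factors and 1 with DESeq2 size factors, and 2 in the wild-type with DESeq2 size factors. Shares of all genes under these settings are not given here, so nothing is read from these member counts. Over all genes, edgeR called 2529 higher and 2690 lower at E-L 27 than at E-L 15. Leaving out each library gave 0 to 4889 higher and 0 to 4744 lower: without any 1 of the 4 libraries of E-L 15 and E-L 27 no gene was called, and without mutant E-L 38 4834 and 4675 were. The same gave 3965 to 7090 higher at E-L 38 than at E-L 27 (7043 with all libraries) and 4531 to 7304 higher at E-L 38 than at E-L 15 (7283 with all libraries). The clone term of these fits is 1 difference over all stages, so clone differences that change direction between stages can cancel in it. Between clones edgeR called 0 of 23570 genes higher and 0 lower in the mutant, against 26 higher and 32 lower with DESeq2. At an unadjusted p below 0.05, edgeR had 551 higher and 661 lower of the 23570. Leaving out each library gave 0 to 1 lower, the 1 without wild-type E-L 38. These fits have 1 residual degree of freedom without a library, and the lone library of a stage is assumed to vary like the others. The alternatives for lists of annotated pathway genes were not run. No paired analysis was possible because each clone has 1 library per stage, all numbered 1, and the stage is already a term of the fit.

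Depth limits VIT_16s0013g01030, VIT_16s0013g01040 and VIT_16s0013g01090. For some differences of VIT_16s0013g00950, VIT_16s0013g00980, VIT_16s0013g01060 and VIT_16s0013g01110 the interval includes no difference or is wide. The clone difference of VIT_16s0013g01120 at E-L 15 has a narrow interval that includes no difference (0.887 to 1.24). The spread between vines, berries or days was not measured in these libraries, and clone, sampling and library cannot be told apart. The real-time PCR of the study covered both of its biological replicates, but those values were not used here. Reads shared by tandem copies were not counted, which may blur or lower the values of single copies. The ratio for VIT_16s0013g01110 between ripe and young berries of the mutant is 0.928 by RPM and 1.22 with TMM factors.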
